A study of Vitis vinifera and Vitis quinquangularis with 24 samples.

Results

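Dihydroflavonol reductase (DFR, VIT_18s0001g12800), leucoanthocyanidin dioxygenase (LDOX, VIT_02s0025g04720) and UDP-glucose:flavonoid glucosyltransferase (UFGT, VIT_16s0039g02230) catalyse consecutive steps at the end of the anthocyanin pathway, and their levels were followed through ripening in berry skin. They were chosen by function, as 3 of 27711 gene models, with earlier results of these data known. All 3 passed the filter on low counts. The deposited tables pair no identifier with a name, and 0 of the 27711 identifiers matched the RefSeq gene table. That table, of assembly ASM3070453v1, places DFR, LDOX and UFGT on chromosomes 18, 2 and 16, which are also the chromosomes of these models.

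Anthocyanins are the red, purple and blue pigments of grape skin, and in coloured grapes they begin to build up at veraison, when berries soften and turn colour. DFR reduces dihydroflavonols to leucoanthocyanidins, and LDOX oxidises these to the coloured anthocyanidins. UFGT then adds a glucose, which gives the stable, water-soluble anthocyanin that is stored in the vacuole. DFR and LDOX also supply the branch to condensed tannins, which young green skins make, whereas UFGT acts on the anthocyanin branch.

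Messenger RNA was sequenced from the skin of Cabernet Sauvignon, a black-berried cultivar of Vitis vinifera, and of Danfeng-2, an accession of the Chinese wild species Vitis quinquangularis. Berries were sampled at E-L 33, 34, 35 and 38 of the Eichhorn-Lorenz scale, called here green (hard berries), softening, colouring and ripe (ready for harvest). These words name the stage and not a colour that was seen. The berry colour of Danfeng-2 is not given in the labels. Each of the 8 groups had 3 libraries, 24 in all, and no treatment is named in the labels. A single cultivar or accession stands for each species, so species and genotype cannot be told apart. Whether libraries of a group came from separate vines is not stated, so p-values reflect only how much these libraries vary, and that variation may be technical. Skin identity was not checked against marker genes, because no identifier is paired with a name. Since skin was sequenced in bulk, fewer pigment cells and less RNA per cell cannot be told apart.

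Total counts per library ran from 13201295 to 23095568. Libraries of the same group correlated at 0.995 to 0.998 in 18 pairs, over log2 levels of all models, and at 0.941 to 0.973 in the other 6 pairs. Those 6 pairs all included replicate 3 of softening Cabernet Sauvignon, replicate 1 of green Danfeng-2 or replicate 1 of colouring Danfeng-2. These 3 libraries stand apart. Where leaving them out changed the call or the sign of a test of the 3 genes, both values are given. The groups of these libraries then hold 2 each. An SE or p without them leaves out the spread that they show. Other values include them unless stated. All libraries were counted on a common set of models, so Danfeng-2 reads that did not align would lower its counts, and their part in the results was not tested. Levels within a gene are given as CPM, the count divided by the scaled library size, and levels between genes as the deposited FPKM, which also divide by length.

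The models lie on 3 chromosomes. DFR was placed on chromosome 18 from 10907364 to 10910253 on the minus strand, with a length of 1435 bp. LDOX was placed on chromosome 2 from 4282127 to 4283947 on the plus strand, with a length of 1503 bp. UFGT was placed on chromosome 16 from 2333168 to 2334700 on the minus strand, with a length of 1435 bp. Coordinates are those of the deposited tables, and the sources used here do not name their genome build.

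DFR, which makes the leucoanthocyanidin, was read in every library. In green Cabernet Sauvignon skin its level was 42.7, 42.5 and 39.9 CPM in the 3 libraries. Softening skin held 20.8, 22.9 and 32.2 CPM, the last in the library that stands apart, and all 3 values lay below those of green skin. Colouring skin held 113.4, 116.2 and 112.7 CPM, and ripe skin 309.8, 318.8 and 313.8 CPM. No stages of Cabernet Sauvignon overlapped, and the level ran from its lowest value at softening to its highest in ripe skin.

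Danfeng-2 showed no such course. Its green skin held 34.1, 38.3 and 33.9 CPM of DFR, and its softening skin 41.8, 43.1 and 41.9 CPM. Colouring skin held 23.6, 35.2 and 39.7 CPM, the lowest in the library that stands apart, and ripe skin 48.3, 46.6 and 49.3 CPM. All 12 Danfeng-2 libraries lay below every colouring or ripe library of Cabernet Sauvignon.

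Ordered by mean, DFR was highest in ripe (314.1 ± 4.5 CPM, SD, n = 3) and colouring Cabernet Sauvignon (114.1 ± 1.84 CPM). Ripe Danfeng-2 came next (48.1 ± 1.37 CPM), ahead of softening Danfeng-2 (42.3 ± 0.721 CPM) and green Cabernet Sauvignon (41.7 ± 1.52 CPM), whose libraries overlapped. Green Danfeng-2 (35.5 ± 2.47 CPM), colouring Danfeng-2 (32.8 ± 8.28 CPM) and softening Cabernet Sauvignon (25.3 ± 6.05 CPM) closed the order, each overlapping the next. These last 3 means were 36.1, 37.4 and 21.8 CPM without the libraries that stand apart, so green and colouring Danfeng-2 changed places. Softening Cabernet Sauvignon (20.8 and 22.9 CPM) then no longer overlapped colouring Danfeng-2 (35.2 and 39.7 CPM).

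LDOX, which forms the coloured anthocyanidin, dipped at softening and then climbed in Cabernet Sauvignon. Its level was 144.2, 148.2 and 144.1 CPM in green skin and 51.5, 55.1 and 57.2 CPM in softening skin. Colouring skin held 697.6, 699.0 and 673.2 CPM, and ripe skin 1779.3, 1823.8 and 1724.1 CPM. None of the 4 stages overlapped another.

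In green Danfeng-2 skin the LDOX libraries held 154.5, 37.4 and 37.1 CPM. The high value was in replicate 1, which stands apart and exceeded the green libraries of Cabernet Sauvignon, while its DFR (34.1 CPM) lay between those of its partners and its UFGT count was 0. Softening Danfeng-2 skin held 63.1, 63.1 and 57.5 CPM, colouring skin 30.02, 37.8 and 33.1 CPM, and ripe skin 86.4, 83.6 and 78.1 CPM. These last 3 stages did not overlap, and no Danfeng-2 library came near the colouring or ripe libraries of Cabernet Sauvignon.

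In the order of LDOX means, ripe (1775.8 ± 49.96 CPM), colouring (690.0 ± 14.5 CPM) and green Cabernet Sauvignon (145.5 ± 2.34 CPM) took the first places. Ripe (82.7 ± 4.22 CPM), green (76.3 ± 67.7 CPM) and softening Danfeng-2 (61.2 ± 3.22 CPM) followed, each overlapping the next because of the single high green library. Softening Cabernet Sauvignon (54.6 ± 2.88 CPM) and colouring Danfeng-2 (33.6 ± 3.94 CPM) came last. Leaving out the libraries that stand apart, green Danfeng-2 had a mean of 37.3 CPM, next to colouring Danfeng-2 at 35.5 CPM.

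UFGT, which adds the glucose, was near 0 in 6 of the 8 groups. It passed the filter on low counts through colouring and ripe Cabernet Sauvignon alone. Its counts in Cabernet Sauvignon were 2, 11 and 1 in green skin and 1, 7 and 1 in softening skin. In colouring skin they were 4939, 5393 and 5837, or 349.1, 363.2 and 340.1 CPM. In ripe skin they were 13998, 13587 and 12974, or 1002.0, 1008.2 and 966.7 CPM. The gene thus went from a handful of reads at softening to one of the well-read models at colouring.

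Danfeng-2 had 0, 3 and 1 UFGT counts in green skin, 1, 0 and 2 in softening skin, 0, 0 and 2 in colouring skin, and 0, 3 and 0 in ripe skin. Over its 12 libraries that was 12 counts in 180382109, with 6 libraries at 0 and none above 3. The 6 green and softening libraries of Cabernet Sauvignon together had 23. Some of the deposited counts lie 1 above the scaled Normalized value, for a reason that is not stated, so small counts may be uncertain by that much.

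Ripe (992.3 ± 22.4 CPM, n = 3) and colouring Cabernet Sauvignon (350.8 ± 11.7 CPM) headed the UFGT order. Green Cabernet Sauvignon followed with 0.274 ± 0.300 CPM, and from there down every group overlapped the next. Summed over its 3 libraries, ripe Danfeng-2 had 0.0784 CPM of UFGT, with a 95% Poisson interval of 0.0162 to 0.229 CPM. Such intervals cover counting error only. The plot of levels by stage shows the genes side by side.

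**Figure D1:**
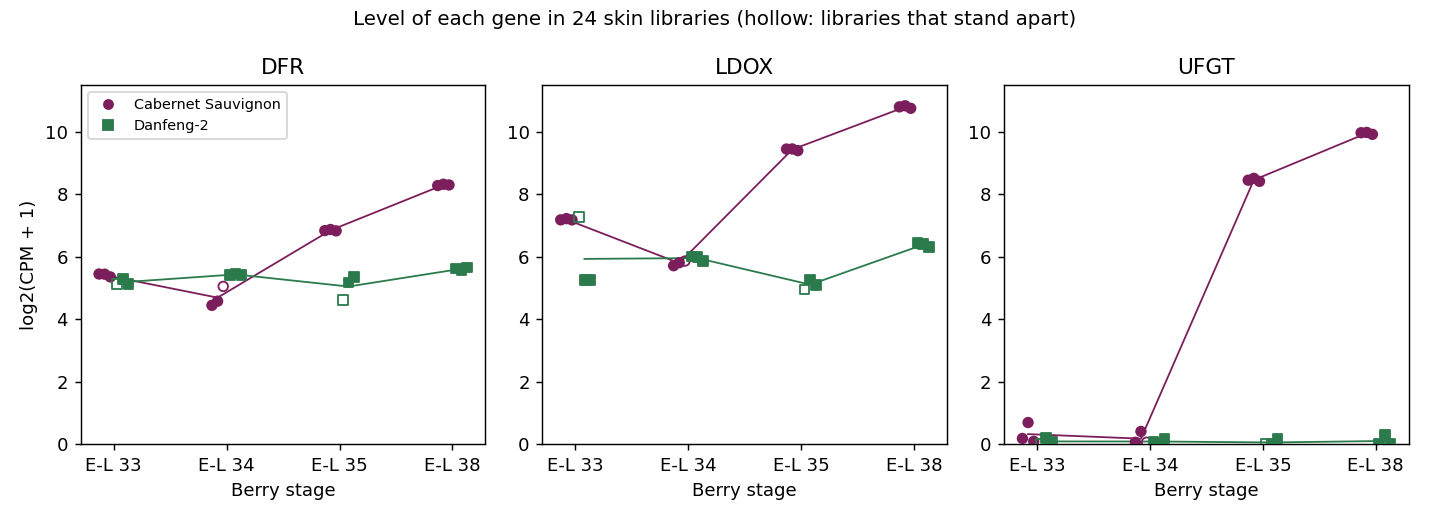
Level of DFR, LDOX and UFGT, as log2(CPM + 1), in each of the 24 libraries by berry stage; circles are Cabernet Sauvignon, squares are Danfeng-2, hollow symbols are the 3 libraries that stand apart, and lines join the means of the log2 values. Cabernet Sauvignon lies above every Danfeng-2 library at E-L 35 and E-L 38 for all 3 genes, and UFGT in Danfeng-2 stays at 0 to 3 counts a library. How many of the other models separate in this way is not given.

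In the first comparison the cultivars were set against each other at the same stage. Calls required edgeR's quasi-likelihood test to give a Benjamini-Hochberg adjusted p under 0.05, over all 18375 models tested, together with a change of 2-fold or more. In colouring and ripe skin, DFR, LDOX and UFGT were all lower in Danfeng-2, whereas none of them was called in green or softening skin. At colouring 3 of 3 were called lower, where 34.4% of all tested models were called in either direction. In ripe skin 3 of 3 were called lower, against 31.6% of all models. In green and softening skin 0 of 3 were called, against 28.2% and 27.4%. At each of those stages 1 of 3 had an unadjusted p under 0.05. In green skin DESeq2 called 1 of 3 (UFGT) and limma a different 1 of 3 (LDOX). In softening skin both called 0 of 3.

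DFR showed the smallest of these differences and UFGT the largest. DFR was lower in Danfeng-2 by 3.48-fold at colouring (log2 fold change -1.80, SE 0.149, adjusted p = 4.5e-09) and by 6.53-fold in ripe skin (-2.71, SE 0.153, adjusted p = 2.5e-11). LDOX was lower by 20.5-fold at colouring (-4.36, SE 0.382, adjusted p = 9.7e-09) and by 21.5-fold in ripe skin (-4.42, SE 0.382, adjusted p = 1e-08). The colouring differences were 2.96-fold for DFR and 18.9-fold for LDOX without the libraries that stand apart. For both genes no Danfeng-2 library reached a Cabernet Sauvignon library at either stage. The share of all models that separate in this way is not given, so this is a description.

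UFGT had 16169 summed counts in colouring Cabernet Sauvignon against 2 in Danfeng-2, a ratio of 8345 with a 95% counting interval of 2309.7 to 68913. In ripe skin it had 40559 against 3, a ratio of 12654 (4329.5 to 61361). Its adjusted p was 5.9e-13 at colouring and 2.6e-13 in ripe skin. The fitted fold of so sparse a gene depends on the small count that the fit adds, so the ratio of counts is given instead. Both colouring counts of Danfeng-2 were in replicate 3 and all 3 ripe counts in replicate 2. Leaving out that library moved the fitted log2 fold change from -12.79 to -15.49 at colouring and from -13.49 to -17.0 in ripe skin. With the scaled Normalized value in place of the count, Danfeng-2 had 1 and 2, and the ratios were 16689 (2994.9 to 659214) and 18979 (5253.7 to 156725).

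Before colouring the differences were smaller. In green skin DFR differed by a log2 fold change of -0.23 (95% interval -0.54 to 0.07, adjusted p = 0.18). Its green libraries did not overlap between the cultivars. Without the libraries that stand apart DFR stayed at -0.23 with adjusted p = 0.00079, under the fold minimum. LDOX was at -0.93 there (SE 0.336, adjusted p = 0.023), under the fold minimum, with libraries that overlapped. Without the libraries that stand apart LDOX was called lower in green Danfeng-2, at -1.99 (SE 0.0545, adjusted p = 4.6e-22), a 3.97-fold difference. That fit holds 2 green Danfeng-2 libraries and not the high one of 154.5 CPM, so its SE and p do not measure the spread with that library. In softening skin DFR was at 0.74 (SE 0.147, adjusted p = 0.0003), a 1.67-fold higher level in Danfeng-2 that stayed under the fold minimum, although the libraries did not overlap. Without the libraries that stand apart DFR was at 0.93, a 1.90-fold difference. LDOX differed there by 0.17 (95% interval -0.54 to 0.87, adjusted p = 0.70). Its softening libraries did not overlap between the cultivars either. Without the libraries that stand apart LDOX was also at 0.17, with a narrower interval (0.06 to 0.29, adjusted p = 0.0053), under the fold minimum.

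UFGT had 14 counts against 4 in green skin, a ratio of 4.22 (1.33 to 17.6), with 11 of the 14 in Cabernet Sauvignon replicate 2. In softening skin it had 9 against 3, a ratio of 2.16 (0.538 to 12.4). Neither stage passed the test, with adjusted p = 0.096 and 0.48 in edgeR. The green difference was called by edgeR without Cabernet Sauvignon replicate 3 (log2 -2.39, adjusted p = 0.046) and by DESeq2 with all libraries (-2.12, adjusted p = 0.019).

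**Figure D2:**
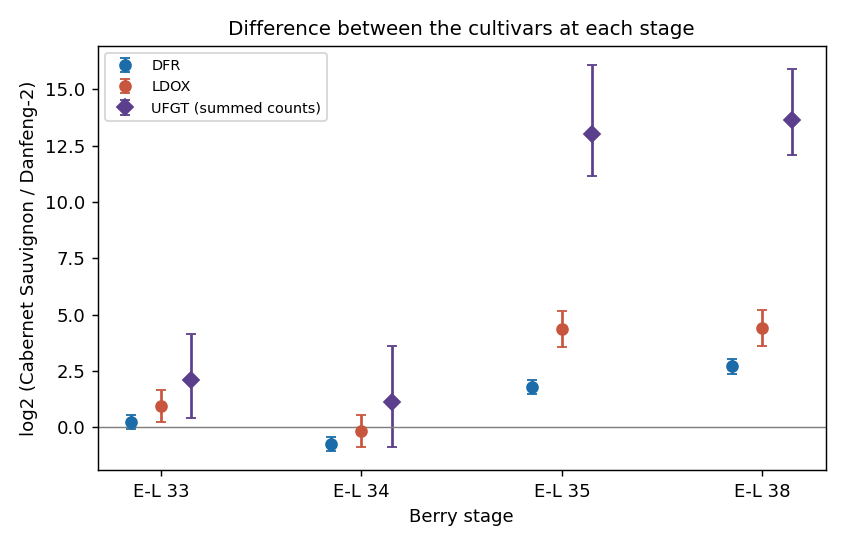
Difference between the cultivars at each stage, as log2 of Cabernet Sauvignon over Danfeng-2. For DFR and LDOX, points and bars are the edgeR estimate with its 95% interval; for UFGT they are the ratio of counts summed over 3 libraries with its counting interval. The genes separate at E-L 35 and E-L 38, from 3.48-fold for DFR at E-L 35 to a count ratio of 12654 for UFGT at E-L 38.

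The second comparison followed each cultivar from stage to stage. In Cabernet Sauvignon all 3 genes rose on the step from softening to colouring and rose again to ripeness. On the first of these steps 3 of 3 were called higher, against 31.4% of all models called in either direction. DFR rose 4.51-fold (log2 2.17, SE 0.151, adjusted p = 3.9e-10) and LDOX 12.6-fold (3.66, SE 0.369, adjusted p = 6.9e-08). Without the libraries that stand apart the folds were 4.95 for DFR and 12.3 for LDOX. UFGT went from 9 summed counts to 16169, a ratio of 2588 (1363 to 5661), with adjusted p = 5.6e-13.

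From colouring to ripe skin the genes rose by folds of similar size, and 3 of 3 were called against 10.6% of all models. The folds were 2.75 for DFR (log2 1.46, SE 0.146, adjusted p = 5.5e-07), 2.57 for LDOX (1.36, SE 0.337, adjusted p = 0.0043) and 2.83 for UFGT (1.5, SE 0.282, adjusted p = 0.00047). On the earlier step, from green to softening, 1 of 3 was called, against 19% of all models. LDOX fell 2.67-fold (log2 -1.41, SE 0.34, adjusted p = 0.0021). DFR was at -0.72 (SE 0.147, adjusted p = 0.00051), under the fold minimum, and UFGT at -1.06 (SE 0.832, adjusted p = 0.31). Without the libraries that stand apart DFR was at -0.92, still under the fold minimum.

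From green to ripe Cabernet Sauvignon skin 3 of 3 rose, against 41% of all models called. DFR ended 7.53-fold higher (adjusted p = 4.8e-12) and LDOX 12.2-fold higher (adjusted p = 5e-08), and the UFGT count ratio was 3368 (2007 to 6162, adjusted p = 1.6e-13).

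In Danfeng-2 fewer changes were called. On the steps from green to softening and from softening to colouring 0 of 3 were called, against 10.3% and 9.12% of all models. An unadjusted p under 0.05 was reached by 0 of 3 on the first of these steps and by 2 of 3 on the second, and DESeq2 and limma called 0 of 3 on both. From colouring to ripe skin 1 of 3 was called, against 24.3%. LDOX rose 2.46-fold on that step (log2 1.30, SE 0.343, adjusted p = 0.0037), and 2.28-fold without the libraries that stand apart. DFR was at 0.55 (SE 0.147, adjusted p = 0.004), under the fold minimum, and at 0.33 without those libraries.

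From green to ripe Danfeng-2 skin 0 of 3 were called, against 30.4% of all models, by edgeR as by DESeq2 and limma, although 1 of 3 had an unadjusted p under 0.05. DFR was at 0.44 (95% interval 0.13 to 0.75, adjusted p = 0.015), LDOX at 0.12 (-0.58 to 0.82, adjusted p = 0.79) and UFGT at 0.16 (-2.73 to 3.04, adjusted p = 0.94). The LDOX value rested on replicate 1 of green skin. Without the libraries that stand apart LDOX rose from green to ripe skin by 2.18-fold (log2 1.12, SE 0.0571, adjusted p = 4.2e-16). Its step from green to softening then turned from -0.32 (SE 0.335, adjusted p = 0.57) to 0.73 (SE 0.0575, adjusted p = 1.9e-11). On the step from softening to colouring LDOX was at -0.86 (SE 0.34, adjusted p = 0.067) with all libraries and at -0.80 (adjusted p = 6e-12) without those 3, under the fold minimum in both.

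The third comparison tested whether a change differed between the cultivars, as the Danfeng-2 change minus the Cabernet Sauvignon change. On the step from softening to colouring it did for 3 of 3 genes, against 24% of all models called. The log2 difference was -2.54 for DFR (SE 0.209, adjusted p = 1.6e-08) and -4.52 for LDOX (SE 0.495, adjusted p = 7e-07). For UFGT it was -11.76 (SE 2.54, adjusted p = 0.00099), a size that depends on the small count added by the fit. Its p also rests on few reads, with 3 and 2 summed Danfeng-2 counts at softening and colouring. From green to ripe skin 3 of 3 were again called, against 30.6%, at -2.47 for DFR (SE 0.208, adjusted p = 2.1e-08), -3.49 for LDOX (SE 0.484, adjusted p = 7.9e-06) and -11.54 for UFGT (SE 2.19, adjusted p = 0.00023). The median over all tested models was -0.11 for this last contrast. LDOX was at -2.42 without the libraries that stand apart.

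On the other steps 0 of 3 were called, against 17.5% of all models from green to softening and 25.1% from colouring to ripe. Their unadjusted p was under 0.05 in 2 of 3 and 1 of 3, and DESeq2 called 0 of 3 on both. With limma on FPKM, 1 of 3 (pseudocount 1) or 2 of 3 (0.1) were called from green to softening, and 1 of 3 or 0 of 3 from colouring to ripe. From green to softening DFR was at 0.98 (SE 0.207, adjusted p = 0.0012), just under the fold minimum, and LDOX at 1.10 (SE 0.474, adjusted p = 0.08), while the median over all models was -0.11. Without the libraries that stand apart both were called, DFR at 1.16 (adjusted p = 3.5e-12) and LDOX at 2.16 (adjusted p = 3.3e-19). From colouring to ripe DFR was at -0.91 (SE 0.205, adjusted p = 0.0014), and without those libraries it was called, at -1.12 (adjusted p = 2e-13). LDOX was at -0.07 on that step, with a 95% interval of -1.06 to 0.93 (adjusted p = 0.95). Without the libraries that stand apart it was at -0.17 (-0.31 to -0.02, adjusted p = 0.042), a small difference that passed the p but stayed under the fold minimum. UFGT was at -0.70 (SE 2.18, adjusted p = 0.84), and a difference on that step was not detectable at 0 to 3 counts a library in Danfeng-2.

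Timing was compared by setting each library against the ripe mean of its own cultivar, without a test. In Cabernet Sauvignon the genes had reached nearly the same share of their ripe level when colouring began. That share was 36.3% ± 0.584 for DFR, 38.9% ± 0.816 for LDOX and 35.4% ± 1.18 for UFGT (SD, n = 3). Green skin was less even, with DFR at 13.3% ± 0.484, LDOX at 8.19% ± 0.132 and UFGT at 0.0276% ± 0.0303.

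In Danfeng-2 DFR stood at 73.7% ± 5.14 of its own ripe level in green skin and at 68.3% ± 17.2 in colouring skin, or 77.8% in the latter without its replicate 1. LDOX stood at 92.3% ± 81.9 in green skin, or 45.1% without replicate 1, and at 40.7% ± 4.76 in colouring skin. UFGT shares are not given for Danfeng-2, where its ripe level rests on 3 counts.

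**Figure D3:**
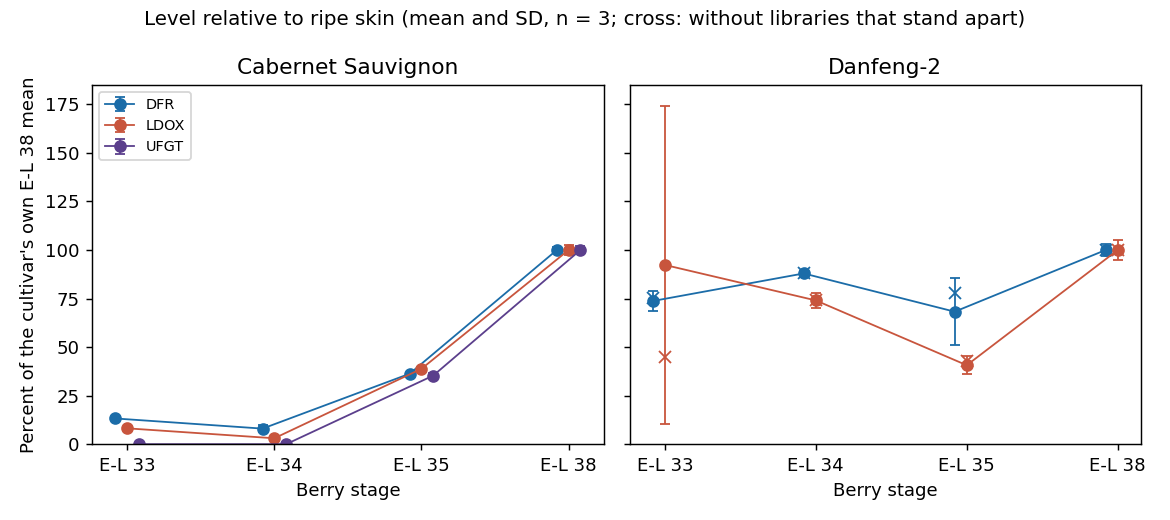
Level of each gene as a percent of the same cultivar's E-L 38 mean, by stage; points and bars are the mean and SD of 3 libraries, and crosses in the Danfeng-2 panel are means without the libraries that stand apart. In Cabernet Sauvignon the genes meet at 35.4% to 38.9% at E-L 35, whereas in Danfeng-2 DFR varies between 68.3% and 87.9% before ripeness; UFGT is not drawn for Danfeng-2.

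Between genes, levels were compared per length within each library, as a ratio of FPKM and without a test. The LDOX level was 3.57 ± 0.213 times that of DFR in green Cabernet Sauvignon skin, 2.34 ± 0.454 times in softening, 6.13 ± 0.159 times in colouring and 5.65 ± 0.17 times in ripe skin (SD, n = 3). The softening ratio was 2.595 without the library that stands apart. In Danfeng-2 the ratio was 1.46 ± 0.067 in softening, 1.07 ± 0.224 in colouring and 1.75 ± 0.116 in ripe skin, below each Cabernet Sauvignon library of the same stage. Its colouring ratio was 0.956 without the library that stands apart. Green Danfeng-2 skin had 2.18 ± 2.0, from 0.979 and 1.06 in replicates 2 and 3 and 4.49 in replicate 1.

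UFGT appeared in this order only in coloured Cabernet Sauvignon skin. Its FPKM was 0.460 ± 0.00897 of that of LDOX at colouring and 0.506 ± 0.00559 in ripe skin, and 2.82 ± 0.0507 and 2.86 ± 0.0885 times that of DFR. With counts per length in place of FPKM the ratios to LDOX were 0.532 and 0.585. LDOX, UFGT and DFR thus followed each other in ripe Cabernet Sauvignon skin, with FPKM of 1494.4 ± 42.6, 756.4 ± 17.8 and 264.7 ± 4.0.

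By mean FPKM in that skin LDOX took place 67, UFGT place 165 and DFR place 656 among the 19829 models above 0. In ripe Danfeng-2 skin LDOX took place 2507, DFR place 4061 and UFGT place 19091 among 20046. Of all counts, LDOX held 0.154% in ripe Cabernet Sauvignon and 0.0076% in ripe Danfeng-2.

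**Figure D4:**
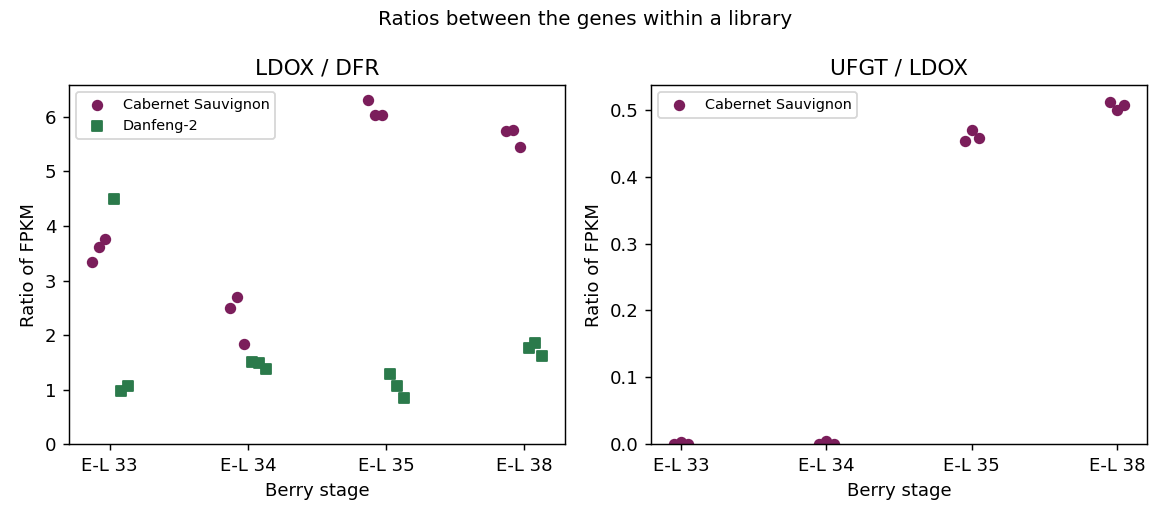
Ratio of FPKM between genes in each library by stage, LDOX over DFR in both cultivars on the left and UFGT over LDOX in Cabernet Sauvignon on the right. LDOX over DFR lies at 5.45 to 6.31 in Cabernet Sauvignon at E-L 35 and E-L 38 against 0.840 to 1.85 in Danfeng-2, and UFGT over LDOX goes from near 0 to 0.453 to 0.512.

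The models whose levels ran most like each gene were ranked by Pearson's r of log2(CPM + 1) over the 24 libraries, among the 18374 other tested models. Libraries share their group and cultivar, so r is a description. DFR and LDOX had r = 0.93 with each other (Spearman's rho 0.82), DFR and UFGT r = 0.93 (0.60), and LDOX and UFGT r = 0.94 (0.63). Within the 12 Cabernet Sauvignon libraries r was 0.99, 0.94 and 0.96 for these pairs, and within the 12 Danfeng-2 libraries it was 0.49, 0.27 and -0.11. Without the libraries that stand apart, r was 0.99, 0.94 and 0.96 over 11 Cabernet Sauvignon libraries and 0.90, 0.0066 and -0.074 over 10 Danfeng-2 libraries, so the low value for DFR and LDOX in Danfeng-2 rested on those libraries. In the ranking for UFGT, LDOX took place 57 and DFR place 71.

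The 5 models most like UFGT were VIT_02s0033g00410 (r = 0.998), VIT_02s0033g00380 (r = 0.998), VIT_04s0079g00690 (r = 0.998), VIT_01s0010g03510 (r = 0.994) and VIT_03s0017g00870 (r = 0.989). The files give these models no name. In Danfeng-2 each had a mean of at most 0.473 CPM at every stage. The ranking used all 24 libraries, so both these low levels and the course in Cabernet Sauvignon are what it selected. They are given as a description. VIT_04s0079g00690 went from 0.0302 ± 0.0262 CPM in softening to 1377 ± 56.3 CPM in colouring and 2929 ± 146 CPM in ripe Cabernet Sauvignon, against 0.206 ± 0.11 CPM in ripe Danfeng-2. VIT_02s0033g00380 went from 0.0597 ± 0.103 CPM in softening to 136.4 ± 10.4 CPM in colouring and 205.9 ± 7.76 CPM in ripe Cabernet Sauvignon. VIT_02s0033g00410 lies within its span on chromosome 2, so reads could be split between them. With rank correlation none of the 5 stayed among the first 5; 18 of the 24 libraries hold UFGT counts of 0 to 11.

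**Figure D5:**
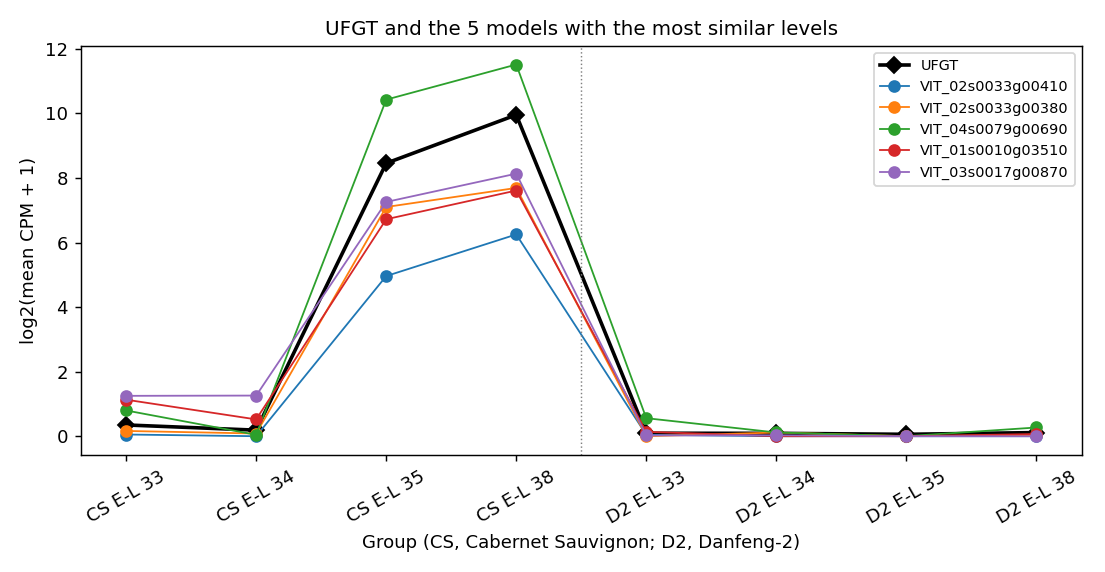
Mean level of UFGT and of the 5 models most like it in the 8 groups, as log2(mean CPM + 1); the dotted line separates Cabernet Sauvignon from Danfeng-2. All 6 lie near 0 in Danfeng-2 and in Cabernet Sauvignon at E-L 33 and E-L 34, where VIT_03s0017g00870 is the highest at 1.39 CPM, and are higher from E-L 35.

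Most like LDOX was VIT_18s0001g14310 (r = 0.973), placed on chromosome 18 from 12303077 to 12305027, with 490.2 ± 8.24 CPM in ripe Cabernet Sauvignon skin against 149.5 ± 3.77 CPM in ripe Danfeng-2 skin. It overlaps another model, so its counts are uncertain to that extent. Like LDOX, it was uneven in green Danfeng-2 skin, from 87.3 to 273.1 CPM. VIT_10s0405g00040, VIT_08s0007g03560, VIT_02s0025g02390 and VIT_14s0060g00240 followed with r of 0.96 to 0.97. For DFR the nearest were VIT_06s0004g07550, VIT_15s0048g00500, VIT_13s0067g02870, VIT_01s0011g06010 and VIT_08s0040g02880, with r of 0.96 each. No model stood among the first 5 of more than 1 of the 3 genes.

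The nearest models on the chromosome, 2 on each side of each gene, were 12, of which 10 were tested. In ripe skin 4 of these were called between the cultivars, near the 31.6% of all models, 1 of them lower in Danfeng-2 (VIT_02s0025g04750, beside LDOX). VIT_16s0039g02220 overlaps UFGT by 67 bp on the opposite strand. It held 57.0 to 91.3 CPM as group means, and its largest difference between the cultivars was a log2 fold change of 0.43 in ripe skin (adjusted p = 0.0006), higher in Danfeng-2. Use of strand in the counting is not stated. VIT_16s0039g02240, on the other side of UFGT, held 36.5 to 66.6 CPM.

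Next to DFR, VIT_18s0001g12810 lies 7615 bp away on the same strand. It had 79.1 ± 2.24 CPM in ripe Danfeng-2 skin and 0 counts in ripe Cabernet Sauvignon skin (adjusted p = 1.1e-06), a difference opposite to that of DFR. VIT_18s0001g12830 rose in both cultivars from green to ripe skin, reaching 1436 ± 33.0 CPM in the ripe skin of Cabernet Sauvignon and 820.4 ± 19.4 CPM in that of Danfeng-2. It was called higher in Danfeng-2 in green and softening skin (log2 1.51 and 1.89). At colouring it was called lower there, as DFR was (332.0 ± 41.8 against 1068 ± 7.7 CPM, adjusted p = 9.2e-09). Its difference of change was also called, at -3.58 from softening to colouring and -2.31 from green to ripe. Beside LDOX, VIT_02s0025g04730 lies 3428 bp away and was called higher in ripe Danfeng-2 skin (183.9 ± 5.3 against 91.8 ± 5.87 CPM, adjusted p = 0.016), where LDOX was 21.5-fold lower. Its difference of change from softening to colouring had the sign of that of LDOX, at -1.99 (adjusted p = 0.0032). VIT_02s0025g04710, on the other side of LDOX, went the other way at 1.47 (adjusted p = 6.4e-05). On that contrast 3 of the 10 tested neighbours were called, against 24% of all models.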

How the data were processed

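Whole-number counts per gene model were deposited by the authors in 1 table per library, 24 in all, with FPKM and a Normalized signal beside them, per the file headers. TopHat2 is the aligner that the submitters' processing notes name. Its version, the genome build, the counting program and the use of strand were not stated. For the 3 genes the deposited count exceeded the Normalized signal, scaled by a constant per library, by 0 to 1. FPKM values were used as deposited by the authors.

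R 4.3.3 and edgeR 4.0.16 were used: filterByExpr kept 18375 of 27711 models, followed by TMM scaling and a quasi-likelihood fit of 8 groups to 24 libraries (common biological coefficient of variation 0.2), with 16 contrasts and Benjamini-Hochberg adjustment over the tested models. A standard error is the log2 fold change divided by the square root of F. The edgeR step was tested on simulated counts. Alternatives were RLE scaling, other filters and thresholds, a replicate block, fits to only the libraries of a contrast, DESeq2 1.42.0, limma 3.58.1 on FPKM after adding a pseudocount of 1 or 0.1 and taking log2, and left-out libraries. Genes named besides the 3 are, by rule, the 5 most alike of each by Pearson's r and the 2 nearest models on each side. The members, lists and tests were chosen with earlier results of these data known. Other pathway genes were to be found by product name and are not reported, since no identifier is paired with a name.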

Additional observations from a re-analysis of the deposited data

Results flagged for a closer look

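A test of the difference itself found that the change between stages differed between the cultivars in 8 results. For DFR the Danfeng-2 change minus the Cabernet Sauvignon change was 0.98 on the log2 scale from green to softening, -2.54 from softening to colouring, -0.91 from colouring to ripe and -2.47 from green to ripe. The first and the third of these passed the adjusted p in edgeR but not the 2-fold minimum. For LDOX it was -4.52 from softening to colouring and -3.49 from green to ripe. For UFGT it was -11.76 and -11.54 on the same contrasts, sizes that depend on the small count added by the fit.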

How the results depend on the processing

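Over 48 results (3 genes in 16 comparisons) and 35 alternatives, 1621 of 1672 log2 values kept their direction and their side of the threshold, 28 newly passed it, none lost a call and 23 changed sign. For 28 results the direction and the call held throughout, among them every call at colouring and in ripe skin between the cultivars. The size of the UFGT calls did move: between the cultivars limma gave -8.04 and -11.19 at colouring and -9.51 and -12.48 in ripe skin (pseudocounts 1 and 0.1). With no fold minimum, LDOX in green skin (-0.93), DFR between the cultivars at softening (0.74), DFR from green to softening in Cabernet Sauvignon (-0.72), DFR in Danfeng-2 from colouring to ripe (0.55) and from green to ripe (0.44), and the DFR differences of changes from green to softening (0.98) and from colouring to ripe (-0.91) passed. Without the libraries that stand apart, LDOX in green skin (-1.99), LDOX in Danfeng-2 from green to ripe (1.12), the differences of change from green to softening (DFR 1.16, LDOX 2.16) and that of DFR from colouring to ripe (-1.12) passed, and in Danfeng-2 LDOX from green to softening (0.73) and UFGT from green to ripe (-0.32) changed sign. With limma at a pseudocount of 1 and 0.1, LDOX in green skin was -1.29 and -1.31 and its difference of change from green to softening 1.43 and 1.45, all now past the threshold. So were the DFR difference of change from green to softening at 0.1 (1.02) and that of UFGT from colouring to ripe at 1 (-1.46). In Danfeng-2 from green to softening LDOX (0.025 and 0.030) and UFGT (0.017 and 0.11) changed sign, as did UFGT from green to ripe at 0.1 (-0.029). DESeq2 called UFGT lower in green Danfeng-2 (-2.12). The cause was not tested.

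No clear pairing by replicate number was seen, although this description cannot exclude a weak one. Deviations of same-numbered libraries correlated at -0.237 to 0.252 in 84 pairs, with 3 pairs over 0.1. The median was 0.00303 for same and -0.00251 for different numbers, and 11 of 24 libraries correlated best with their own number. A replicate block changed 1 call, LDOX in green skin (-1.02).

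Leaving out 1 library at a time gained a call in 8 fits. It moved LDOX in green skin between -1.96 and -0.60, called without Danfeng-2 replicate 1; the other LDOX calls gained, in Danfeng-2 from green to ripe and in the difference of change from green to softening, came without the same library. UFGT in green skin was called without Cabernet Sauvignon replicate 3 (-2.39). The DFR difference of change was called from green to softening without replicate 3 of green or of softening Cabernet Sauvignon or replicate 2 of green Danfeng-2, and from colouring to ripe without replicate 1 of colouring Danfeng-2. In Danfeng-2 LDOX ran from -0.65 to 0.72 from green to softening and from -0.22 to 1.15 from green to ripe. The differences of change ran from 0.77 to 2.13 for LDOX and 0.85 to 1.18 for DFR from green to softening, and from -0.14 to 0.025 for LDOX and -1.10 to -0.75 for DFR from colouring to ripe. UFGT between the cultivars ran from -3.12 to -0.49 in green and -1.88 to 0.44 in softening skin, and from -2.52 to 0.40 in Cabernet Sauvignon from green to softening. UFGT in Danfeng-2 ran from -0.99 to 1.04 from green to softening, -3.21 to 0.35 on the next step, -2.71 to 3.49 on the last and -3.35 to 1.33 from green to ripe. Its differences of change ran from -0.53 to 2.39 from green to softening and -4.21 to 1.995 from colouring to ripe. Among calls, UFGT between the cultivars ran from -15.49 to -12.27 at colouring and -17.0 to -12.9 in ripe skin, and in Cabernet Sauvignon it reached 12.72 from softening to colouring and 13.16 from green to ripe without replicate 2 of the earlier stage. Its differences of change ran from -14.46 to -10.91 from softening to colouring and -15.05 to -10.37 from green to ripe, lowest without replicate 3 of colouring or replicate 2 of ripe Danfeng-2. That of LDOX from green to ripe ran from -3.82 to -2.46, highest without replicate 1 of green Danfeng-2. Counts of 0 to 11 limit these UFGT values. The UFGT ratios from the Normalized value and the correlations without the libraries that stand apart were chosen after seeing the data.

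Fits to only the libraries of a contrast gave no value for 8 UFGT results, because the filter on low counts dropped the gene. With no fold minimum 3824 to 12488 models were called in the 16 comparisons, against 1676 to 7537. The count moved by over 1.5 times also with limma at a pseudocount of 1 for Cabernet Sauvignon from colouring to ripe (1182 against 1950) and for Danfeng-2 from green to softening (1120 against 1893), and with only the compared libraries for the latter (935).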
